A study of Dendrobaena veneta with 18 samples.

Results

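The 200 features described here are the abundant assembled genes that gut and cerebral ganglion of the earthworm Dendrobaena veneta have in common. A feature is a gene as the de novo assembly of the reads delimited it, and the table holds 243619 of them. The members were selected on measured values. A feature entered when it had at least 100 FPKM (fragment counts scaled to the length of the feature and to the size of the library) in all 17 libraries and when its mean FPKM in the ganglion and in gut lay within 3-fold of each other. The floor was passed by 232 features and the tissue window by 208 of these, and the 200 with the highest lowest value were kept. The level of the members and their ratio between tissues were thus chosen by the rule and are given below as a description, with no test.

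Adult worms were kept for 28 days in topsoil with carbamazepine, a medicine against seizures that acts on voltage-gated sodium channels of neurons. The soil received 0, 0.6 or 10 mg/kg. All soils, those of the controls included, had been spiked with methanol that was left to evaporate, and no food was added during exposure. The ganglion, the nerve mass that serves the worm as a brain, has 3 libraries at each of control, low dose (0.6 mg/kg) and high dose (10 mg/kg). Gut has 2 control libraries, numbered 2 and 3, and 3 libraries at each of low and high dose. The labels list 18 samples, and gut control 1 was not analysed here. They do not say whether a replicate is 1 animal or a pool, so the spread between samples may be partly technical.

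In animal cells, the transcripts that are abundant in every tissue mostly serve upkeep that all cells share. Textbook examples are ribosomal proteins and translation factors, actin and tubulin of the cytoskeleton, and proteins of the mitochondrial respiratory chain. Which of these the members encode is not known here, because the files pair the identifiers with no gene names and no sequence was at hand. No function or tissue marker could therefore be looked up, and the members are named by identifier. In an identifier such as DN76330_c0_g1 the part before the final g1 names a component, a group of features assembled from overlapping reads, and the last part names the feature within it.

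Total counts per library ran between 12536754 and 18285270. The median over members of the lowest count in any library was 3868. The smallest count of any member in any library was 33.0, in gut control 3. Gut low dose libraries 1 and 3 were nearly the same library over the members. After a shift common to all members was removed, the median member differed by 1.02-fold between them and the largest difference was 1.57-fold. In the tests they were averaged and counted as 1 sample. Gut high dose libraries 1 and 3 were also close, with a median of 1.04-fold and a largest difference of 1.32-fold, and they entered the tests as 2 samples. In the other 14 pairs of libraries of a group the median was 1.11 to 1.33-fold, and 2 to 27 members differed by more than 2-fold. By 2740 features that are on in some libraries and off in others, 10 pairs of libraries matched, that is the presence of these features correlated at more than 0.6. Of these, 2 lay within gut, at 0.915 for the low dose pair and 0.827 for the high dose pair, and 8 joined a ganglion and a gut library. Among unmatched pairs the highest correlation was 0.477, for ganglion control 3 and ganglion high dose 3. Gut control 3 and ganglion high dose 3 followed at 0.404. Both of these pairs join different dose groups. Taken as worms, the matches give 9 animals, of which 6 have a gut library, 2 at each of control, low dose and high dose. Gut tests at high dose thus count 1 matched worm as 2 samples. Values with that pair averaged are given for part of them. This matching was chosen after the data were seen.

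The members held a larger share of the counts in the ganglion than in gut. In the ganglion the share was 23.0%, 30.6% and 37.2% in the control libraries, 28.7%, 23.6% and 26.3% at low dose, and 31.8%, 25.03% and 29.3% at high dose. In gut it was 12.9% and 15.0% in the controls, 18.4%, 17.2% and 18.4% at low dose, and 13.0%, 14.3% and 15.9% at high dose. Every ganglion library lay above every gut library. In such bulk samples, a different mix of cells and a different amount of RNA per cell cannot be told apart. Within gut the low dose libraries lay above all others, and within the ganglion the dose groups overlapped, with the lowest and the highest share both in controls. Of the 100 most abundant features of a library, 46 to 64 were members in the ganglion and 19 to 34 in gut.

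**Figure D1:**
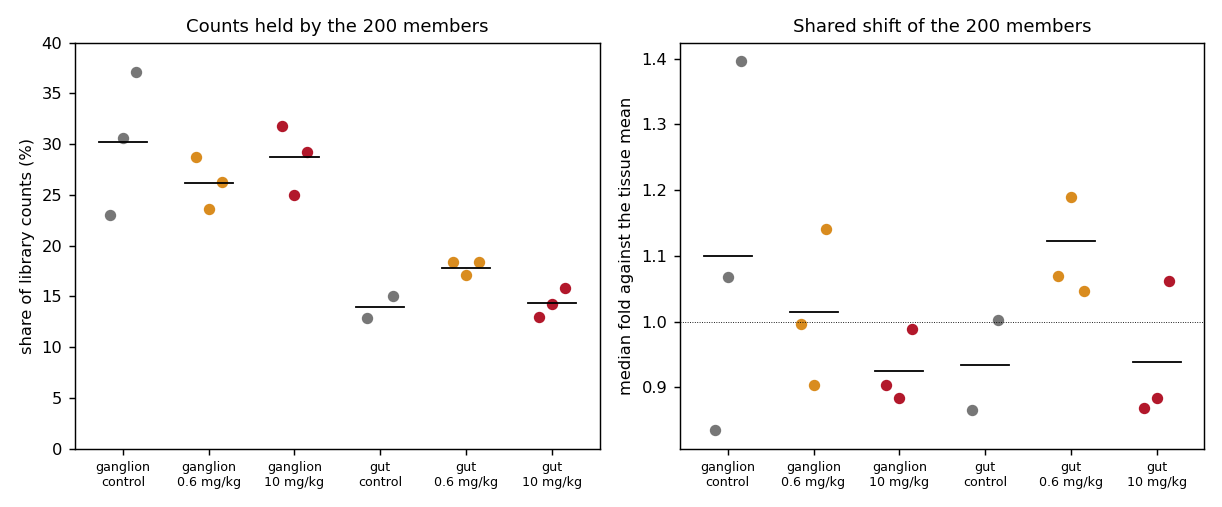
The left panel plots the percentage of each library's counts that fell on the 200 members, and the right panel the median fold of the members against their mean FPKM over the libraries of the tissue, by tissue and dose. Points are libraries and lines are group means, in which the near-identical gut low dose libraries 1 and 3 count as 1. Ganglion shares lie between 23.0% and 37.2% and gut shares between 12.9% and 18.4%, and ganglion control 3 stands highest in both panels.

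The shared shift of the members, that is the median fold of all 200 against their tissue mean, was 0.83, 1.07 and 1.40 in the ganglion controls. Across gut libraries it lay between 0.87 and 1.19. Ganglion controls therefore spanned a wider range than any other group. On the log2 scale the median standard deviation of a member over the 9 ganglion libraries was 0.32, and 0.23 once each library's shift was removed. In gut, with the near-identical pair counted once, these values were 0.28 and 0.23.

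The member with the highest floor was DN76330_c0_g1, which was also among the most abundant features of the whole assembly. In the ganglion it had 41383, 72642 and 89983 FPKM in controls, 81782.5, 43545 and 37627 FPKM at low dose, and 92664, 67828 and 61524 FPKM at high dose. In gut it had 15649.5 and 28352 FPKM in controls, 42441, 19801 and 42292 FPKM at low dose, and 19946, 28850.3 and 23952 FPKM at high dose. The dose groups overlapped in both tissues, and gut low dose libraries 1 and 3 reached into the range of the ganglion. This feature alone took 3.82% to 9.39% of the counts of a ganglion library and 1.58% to 4.26% of those of a gut library. It ranked among the first 4 features of every ganglion library and among the first 10 of every gut library. It is the only feature of its component.

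The next 3 members by lowest value were DN76090_c0_g1, DN72982_c0_g1 and DN72982_c0_g3. DN76090_c0_g1 averaged 9281 FPKM in the ganglion and 9799 FPKM in gut, a ratio of 0.947. DN72982_c0_g1 averaged 12292 FPKM in the ganglion and 8651 FPKM in gut, and DN72982_c0_g3 averaged 23176 FPKM in the ganglion and 8101 FPKM in gut. The 2 features of component DN72982_c0 were thus near the same level in gut, with ratios of 1.42 and 2.86 between ganglion and gut. Of the reads of that component, g1 took a median of 46.3% in the ganglion and 63.6% in gut, and g3 took 53.7% in the ganglion and 36.3% in gut. The ratio of g1 to g3 in FPKM moved by 1.92-fold over the ganglion libraries, by 1.15-fold over the gut libraries and by 3.18-fold over all libraries.

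The lowest value of a member over the 17 libraries had a median of 332 FPKM, and 29 members never fell under 1000 FPKM. That lowest value was found in a gut library for 174 members and in a ganglion library for 26. Gut control 2 held it for 55 members, gut high dose 2 for 44, gut high dose 1 for 36 and gut control 3 for 27. Low dose gut libraries held it for 11 members. At the last ranks inside, DN85725_c2_g1 had a lowest value of 107 FPKM and DN98102_c2_g5 of 104.1 FPKM. Just past the last rank, DN88111_c0_g2 had 103.7 FPKM and DN83084_c0_g4 had 103.3 FPKM. The feature nearest under the floor, DN106717_c4_g1, had a lowest value of 97.1 FPKM.

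Within the window, most members were higher in the ganglion. The mean FPKM of the ganglion over that of gut had a median of 1.61, with quartiles of 1.21 and 1.85, and it exceeded 1 for 171 members and fell under 1 for 29. It was above 2 for 37 members. For 73 members every ganglion library lay above every gut library, for 0 members the reverse held, and for 127 the tissues overlapped. By dose, the median ratio was 1.76 in controls, 1.5 at low dose and 1.54 at high dose. On TMM-scaled counts, as CPM, the median was 1.54, with 170 members above 1 and 30 under 1. At the edges of the window, DN78977_c2_g1 lay inside with a ratio of 2.99 and DN101478_c2_g1 outside with 3.004, while on the gut side DN86136_c3_g3 lay inside with 0.539 and DN85656_c5_g2 outside with 0.298. The 24 features that passed the floor and failed the window included 17 that were too high in the ganglion and 7 that were too high in gut.

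**Figure D2:**
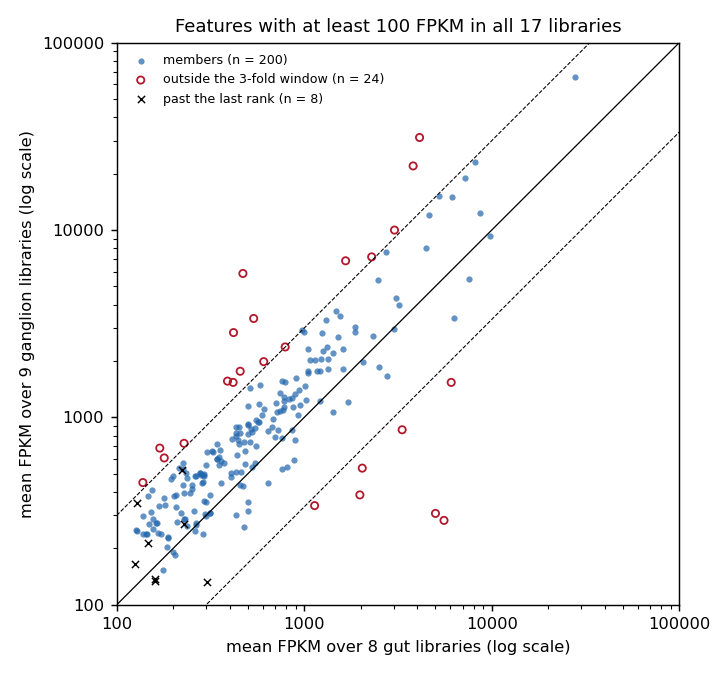
Each mark is a feature with at least 100 FPKM in all 17 libraries, placed by its mean FPKM over the 8 gut libraries (horizontal, log scale) and over the 9 ganglion libraries (vertical, log scale). The solid line marks equal means and the dashed lines the 3-fold window; most of the 200 filled points lie above the solid line, and DN76330_c0_g1 is the point at the upper right.

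The rule set no limit on the length of a feature or on how its reads were counted. FPKM divides by length, however, so a short feature passes the floor on fewer counts. The lengths of the members are therefore not independent of the rule. The effective length behind an FPKM value, that is the number of start positions a fragment can have, was worked out from the count, the FPKM and the library total. Its median was 806 bases over the members and 998 bases over the 57596 features with a median count and FPKM above 0. Very short features took a larger share of the members than of all features. Under 50 bases were 11 members, or 5.5%, against 1.26% of all these features, and under 200 bases were 31 members, or 15.5%, against 8.64%. At the other end, 85 members had 1000 bases or more, which is 42.5% of the members against 49.9% of all.

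The FPKM of such short members rests on few counts and on a length that differed between libraries. The 11 members under 50 bases had lowest counts of 33.0 to 229, while their lowest FPKM ran from 118 to 2172. Their implied length varied by 1.39 to 1.86-fold across libraries, whereas that of the 85 longest members varied by 1.004 to 1.015-fold. DN86136_c3_g3 was the extreme case, with an implied length of 4.72 bases, a lowest count of 127 and a lowest value of 2172 FPKM. It stood at rank 13 by lowest FPKM. When an effective length of at least 200 bases was asked for, 175 features passed floor and window, and 169 of them were among the members.

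**Figure D3:**
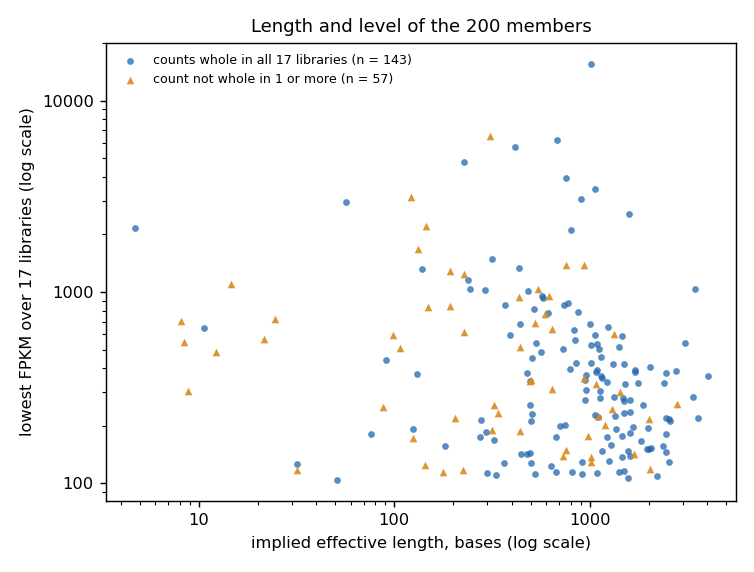
Each mark is a member, placed by its implied effective length in bases (horizontal, log scale) and its lowest FPKM over the 17 libraries (vertical, log scale). Circles are the 143 members with whole counts in all libraries and triangles the 57 with a count that was not whole in at least 1 library; the 11 members under 50 bases stand apart at the left.

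Programs that estimate counts divide a read that matches several features among them, so a count that is not whole can mark shared reads. Such counts occurred in at least 1 library for 57 members, or 28.5%, against 6.69% of the 69689 features tested over both tissues. In 16 or all 17 libraries they occurred for 22 members, or 11.0%, against 0.227% of the features tested. A count of 0 is whole, and a larger count holds more reads that can be divided. By the rule the members have reads in all 17 libraries, whereas other features tested need not. Members and background were thus not compared at like levels, and the rule may set part of both differences. DN76090_c0_g1, the second member by level, had counts that were not whole in 16 libraries. If reads were shared, the level of such a member depends on how they were divided, which was not tested. Of the 31 members under 200 bases, 20 had such counts.

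The 200 members came from 182 components of the 161562 in the assembly. A component held 2 members in 14 cases and 3 members in 2 cases, so 34 members shared a component with another, and 33 members were alone in theirs. In all libraries 126 members held over 90% of the counts of their component and 160 held over 50%. Of the remaining members, 20 held under 50% in every library and 20 lay under 50% in some libraries and over it in others.

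Features of 1 component did not always have the same ratio between tissues. Over the 20 pairs of members that shared a component, the ratios of ganglion to gut differed by 1.09 to 2.08-fold within a pair, with a median of 1.40-fold. The level of one feature over the other spanned 1.46 to 8.11-fold across the 17 libraries, with a median of 2.48-fold. In component DN85546_c2 the member g2 had a ganglion to gut ratio of 2.54, the member g1 had 1.22, and the feature g4, which passed the floor, fell outside the window on the gut side with 0.263. The features of DN86758_c0 differed less, with 2.65 for the member g3 and 4.01 for g1 outside the window.

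The coefficient of variation of a member had a median of 23.5% over the ganglion libraries and 19.5% over the gut libraries. Other features with at least 100 FPKM in every library of the tissue had medians of 36.3% in the ganglion (209 features) and 40.8% in gut (312 features). The floor and the window limit how far a member can vary, so this difference is a property of the choice. The steadiest members in the ganglion were DN88480_c3_g2 at 9.67% and DN57650_c0_g1 at 10.6%, and in gut DN79048_c0_g2 at 7.43% and DN84628_c2_g1 at 9.6%. DN79048_c0_g2 stayed between 144 and 169 FPKM in gut and lay between 339 and 486 FPKM in the ganglion. It was thus among the least variable members of gut while its ratio between tissues was 2.64.

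The most variable members in the ganglion were DN93631_c1_g7 at 90.1% and DN102074_c1_g9 at 64.6%. DN93631_c1_g7 had 481, 395 and 1422 FPKM in controls, 303, 263 and 193 FPKM at low dose, and 196, 193 and 419 FPKM at high dose. DN102074_c1_g9 had 949 FPKM in control 3 and 215 to 358 FPKM in the other 8 libraries. Both were highest in ganglion control 3, the library in which the members as a whole also stood highest. In gut the most variable were DN84493_c0_g1 at 63.9%, with 458 to 2048 FPKM, and DN101779_c3_g2 at 51.1%, with 201 to 1060 FPKM.

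The 8 matched pairs of a ganglion and a gut library come from 6 worms if the matches are taken as worms. In these pairs the deviations of the 200 members from their group means correlated across members at 0.0928 to 0.482, with a median of 0.396. In the 16 pairs of the same dose that did not match, the correlation ran between -0.514 and 0.390, with a median of -0.223. Deviations within a group sum to 0, which makes these values negative in part. With 2 gut controls, the values of a ganglion control with them are equal in size and opposite in sign. For ganglion control 1 they were 0.454 in the matched pair and -0.454 in the other. With their close gut pairs, the low and high dose groups came near that case. The contrast between the medians is thus in part built in. Members are not independent of each other, and these correlations are a description.

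The dose comparisons ask whether carbamazepine changed the levels of these shared transcripts. The rule did not use dose, although its floor limits how far a member can fall. No member was called by edgeR's quasi-likelihood test with Benjamini-Hochberg adjustment over all features tested, at an adjusted p under 0.05, in any of the 6 dose comparisons or of the 2 differences of a dose effect between tissues. All 200 members were tested in each. The median SE of a member's log2 fold was 0.37 to 0.41 in the dose comparisons.

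In the ganglion at high dose, the members tended to lower values than in controls on every scale. The median log2 fold was -0.29, against -0.01 over all features tested, with 46 members higher and 154 lower. By edgeR 0 members were called, where the share over all features was 0%. At an unadjusted p under 0.05 stood 2 members, or 1%, against 3.7% of all features (1 without high dose 1 or 2, 4 without high dose 3), and DESeq2 called 0 members, against 0.316%. The groups did not overlap for 2 members that were higher and 3 that were lower, which is 1% and 1.5% against 4.31% and 3.21% of all features. Without ganglion control 3 the median was 0.07, so its direction rested on that library. Among lower members the smallest p belonged to DN93631_c1_g7, with a log2 fold of -1.61 (SE 0.63, unadjusted p = 0.0306 by edgeR, not called). With 1 library left out that fold ran from -2.10 to -0.58.

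At low dose the ganglion members had a median log2 fold of -0.08, against -0.03 over all features, with 71 higher and 129 lower. No member was called by edgeR, against 0.00208% of features, and 6 had an unadjusted p under 0.05, or 3% against 16.7% (3 without low dose 2). DESeq2 called 2 members, or 1% against 8.35%. Groups without overlap were seen for 3 members that were higher and 10 that were lower, or 1.5% and 5% against 12.7% and 8.6% of all features. Without control 3 the median was 0.26 and without low dose 2 it was 0.03.

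The ganglion members with the smallest p at low dose were DN101167_c3_g3 and DN88332_c1_g4. DN101167_c3_g3 had 21.8, 31.3 and 44.0 CPM (counts scaled by library totals and TMM factors) at low dose and 92.1, 57.6 and 113 in controls. Its log2 fold was -1.43 (SE 0.39), with adjusted p = 0.160 by edgeR, and DESeq2 gave an adjusted p of 0.0337. All low dose libraries lay below all controls. DN88332_c1_g4 had 2080.0, 1816 and 2652 CPM at low dose and 949.9, 1017 and 982 in controls, a log2 fold of 1.15 (SE 0.35) with an adjusted p of 0.180 by edgeR and 0.0125 by DESeq2. Both had counts that were not whole, in 12 and in 10 libraries.

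Between the doses, ganglion members had a median log2 fold of -0.20 at high over low dose, against -0.04 over all features, with 62 higher and 138 lower. Without low dose 3 the median was -0.0017, with 98 higher and 102 lower, and without high dose 2 it was -0.06, so the tilt rested on these libraries. Called by edgeR were 0 members, against 0% of features, and 4 had an unadjusted p under 0.05, or 2% against 10.8% (1 without high dose 1, 2 without low dose 1). DESeq2 called 0 members, against 2.85%. Groups did not overlap for 6 members that were higher and 15 that were lower, or 3% and 7.5% against 10.9% and 9.34%. The smallest p in either direction belonged to DN101167_c3_g3, with 89.3, 103 and 66.9 CPM at high dose and the low values given above at low dose (log2 fold 1.42, SE 0.39, adjusted p = 0.349 by edgeR), and to DN84577_c1_g1 (log2 fold -1.26, SE 0.52, adjusted p = 0.438 by edgeR). Among ganglion libraries DN101167_c3_g3 was thus lowest in those of low dose, and its high dose and control libraries overlapped.

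In gut at high dose the median log2 fold of the members over controls was -0.02, against 0.02 over all features, with 89 higher and 111 lower. Its sign turned without gut control 3 (0.39), without high dose 1 (0.10), without high dose 3 (0.06) and with high dose libraries 1 and 3 averaged (0.08). By edgeR 0 members were called, against 0.00599% of features, and 9 had an unadjusted p under 0.05, or 4.5% against 7.75%. That count was 1 with high dose libraries 1 and 3 averaged, 1 without high dose 1, 2 without high dose 3 and 4 without control 3. DESeq2 called 4 members, or 2% against 1.68%, and 2 with that pair averaged. Groups did not overlap for 22 members that were higher and 9 that were lower, or 11.0% and 4.5% against 12.4% and 11.4%. Among lower members the smallest p belonged to the very short DN86136_c3_g3, with a log2 fold of -0.62 (SE 0.24). Its adjusted p was 0.629 by edgeR and 0.414 by DESeq2.

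At low dose the direction of the gut members depended on the scale. On TMM-scaled counts the median log2 fold over controls was -0.27, against 0.04 over all features, with 38 higher and 162 lower, while on log2(FPKM + 1) it was 0.22 with 173 higher and 27 lower. On that second scale the median of all features was itself 0.33, so the members lay below it on both, by 0.31 and by 0.10. On log2(FPKM + 0.1) the median was 0.48 over all features and 0.23 over the members. The size of the gap in FPKM thus depended on the value added. The TMM factors were 1.27 and 1.24 for the low dose samples and 1.07 and 0.787 for controls. Without gut control 3 the median on TMM-scaled counts was 0.15. Groups did not overlap for 15 members that were higher and 35 that were lower on TMM-scaled counts, or 7.5% and 17.5% against 20.5% and 16.8% of all features. In FPKM these counts were 67 and 8, or 33.5% and 4% against 36.7% and 7.21%. By edgeR 0 members were called, against 0.024% of features, and 7, all lower, had an unadjusted p under 0.05, or 3.5% against 7.88%. That count was 3 without the averaged low dose sample and 14 without control 2. DESeq2 called 4 members, or 2% against 1.55%.

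Of these 7 members, 3 were the members g1, g2 and g3 of component DN105801_c3. DN105801_c3_g3 had 51.5 and 58.0 CPM at low dose and 110 and 151 in controls, and 112, 115 and 117 at high dose. Its log2 fold at low dose over control was -1.25 (SE 0.26, adjusted p = 0.447 by edgeR, 0.000430 by DESeq2). The members g1 and g2 had log2 folds of -1.17 and -1.21, with edgeR adjusted p of 0.595 and 0.604, and all low dose gut values of the 3 features lay below all control values. Since they come from 1 component, they are not independent. In the ganglion the groups overlapped, with 62.9, 146 and 109 CPM for g3 at low dose and 73.0, 55.5 and 77.3 in controls. The smallest p of the 7 belonged to the very short DN86136_c3_g3, with 18.5 and 14.9 CPM at low dose and 47.4 and 36.6 in controls (log2 fold -1.33, SE 0.27, adjusted p = 0.434 by edgeR, 0.00349 by DESeq2). The smallest p among the higher members was that of DN89279_c0_g1, with a log2 fold of 0.78 and an adjusted p of 0.666 by edgeR. Its fold was 0.40 without control 3, 0.46 without low dose 2 and 1.25 without control 2.

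Between the doses in gut, the scale again set the direction. The median log2 fold at high over low dose was 0.24 on TMM-scaled counts, against 0.00 over all features, with 171 members higher and 29 lower, and -0.25 on log2(FPKM + 1), against -0.31 over all features, with 27 higher and 173 lower. On log2(FPKM + 0.1) the median was -0.25 over the members and -0.45 over all features. On TMM-scaled counts the median was 0.04 without high dose 2, with 111 higher and 89 lower, and 0.37 without low dose 2. On this scale groups did not overlap for 50 members that were higher and 5 that were lower, or 25% and 2.5% against 13.2% and 15.2%. In FPKM the counts were 5 higher and 81 lower, or 2.5% and 40.5% against 4.76% and 32%. By edgeR 0 members were called, against 0.022% of features, and 9, all higher, had an unadjusted p under 0.05, or 4.5% against 9.24% (22 with the low dose pair kept separate). DESeq2 called 6 members, or 3% against 2.48%, and 6 with high dose libraries 1 and 3 averaged. In the other counts of this comparison those libraries, which matched as 1 worm, stood as 2 samples. The lowest p among lower members belonged to DN84849_c1_g1, with a log2 fold of -0.75 and an adjusted p of 0.549 by edgeR, and its fold was -0.47 without the averaged low dose sample.

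**Figure D4:**
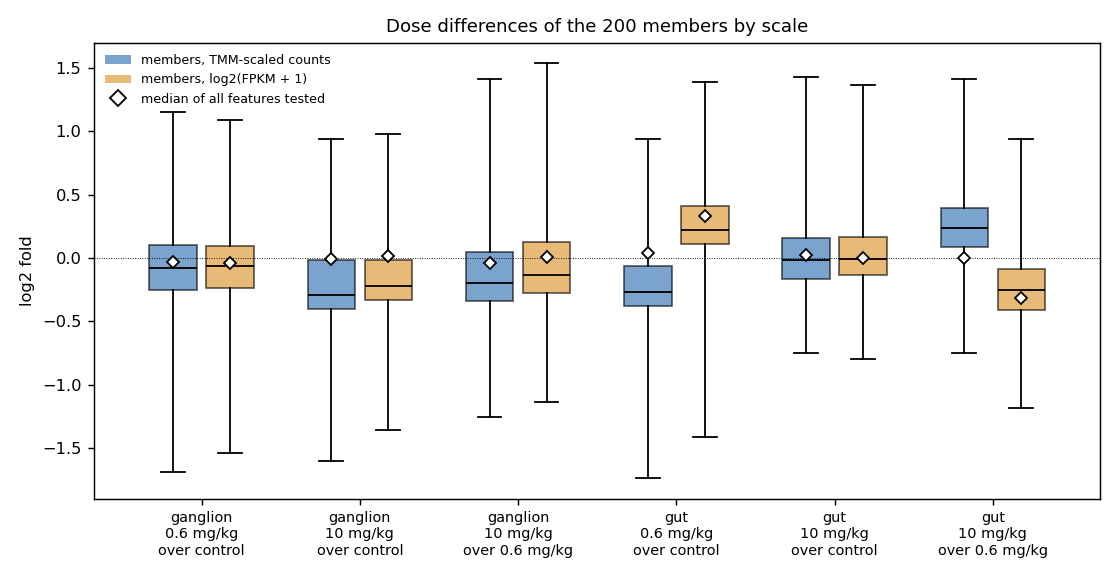
Boxes show the quartiles and medians, and whiskers the full range, of the log2 fold of the 200 members in 6 dose comparisons, on TMM-scaled counts (blue) and on log2(FPKM + 1) (orange); diamonds are medians over all features tested. In gut the boxes at 0.6 mg/kg over control and at 10 over 0.6 mg/kg lie on opposite sides of 0 on the 2 scales, and the diamonds move with them.

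The member with the smallest p at high dose over control, in gut and in the ganglion, was DN79350_c1_g2, a feature of 1160 bases with whole counts in every library, at rank 165 by lowest value. In gut it had 160.2 and 148 FPKM in controls, 210.5, 182 and 198 FPKM at low dose, and 347, 339 and 434 FPKM at high dose. In the ganglion it had 277, 328 and 368 FPKM in controls, 340.1, 351 and 366 FPKM at low dose, and 581, 689 and 645 FPKM at high dose. All high dose libraries lay above all others of their tissue. On TMM-scaled counts, with the matched pair of gut high dose libraries counted once, gut averaged 505 ± 98.8 CPM at high dose and 197 ± 31.3 in controls (SD, n = 2 each), and the ganglion 746 ± 46.7 at high dose and 389 ± 115 in controls (SD, n = 3 each).

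The log2 fold of DN79350_c1_g2 in gut was 1.29 (SE 0.29) at high dose over control, with adjusted p = 0.410 by edgeR and an adjusted p of 0.000217 by DESeq2. Over low dose it was 1.41 (SE 0.29), with an adjusted p of 0.307 by edgeR and 1.24e-05 by DESeq2. In both gut comparisons the matched high dose libraries 1 and 3 counted as 2 samples. In the ganglion the log2 fold over control was 0.94 (SE 0.33), with adjusted p = 1 by edgeR and an adjusted p of 0.405 by DESeq2. Over the alternatives run, its adjusted p in gut at high dose over control ranged between 0.000217 and 1. With no filter on low counts, edgeR gave 0.0376, so the call depended on the tool and the filter. With gut high dose libraries 1 and 3 averaged, the log2 fold was 1.36 with an adjusted p of 1 by edgeR and 0.000896 by DESeq2. Leaving out any single library left the log2 fold between 1.13 and 1.46 in gut and between 0.76 and 1.17 in the ganglion.

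Across both tissues, groups without overlap at high dose over control were found for 2 members that were higher and 1 that was lower, or 1% and 0.5% against 1.48% and 0.933% of the 36003 features tested in both. They were DN79350_c1_g2 and DN88124_c4_g1 among the higher and DN100620_c2_g1 as the lower one, named after their values were seen. At low dose over control the corresponding counts were 1 higher and 4 lower, or 0.5% and 2% against 2.91% and 1.61%. The 1 higher member was DN88332_c1_g4, and DN93631_c1_g7 and DN80493_c2_g2 were among the lower ones.

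**Figure D5:**
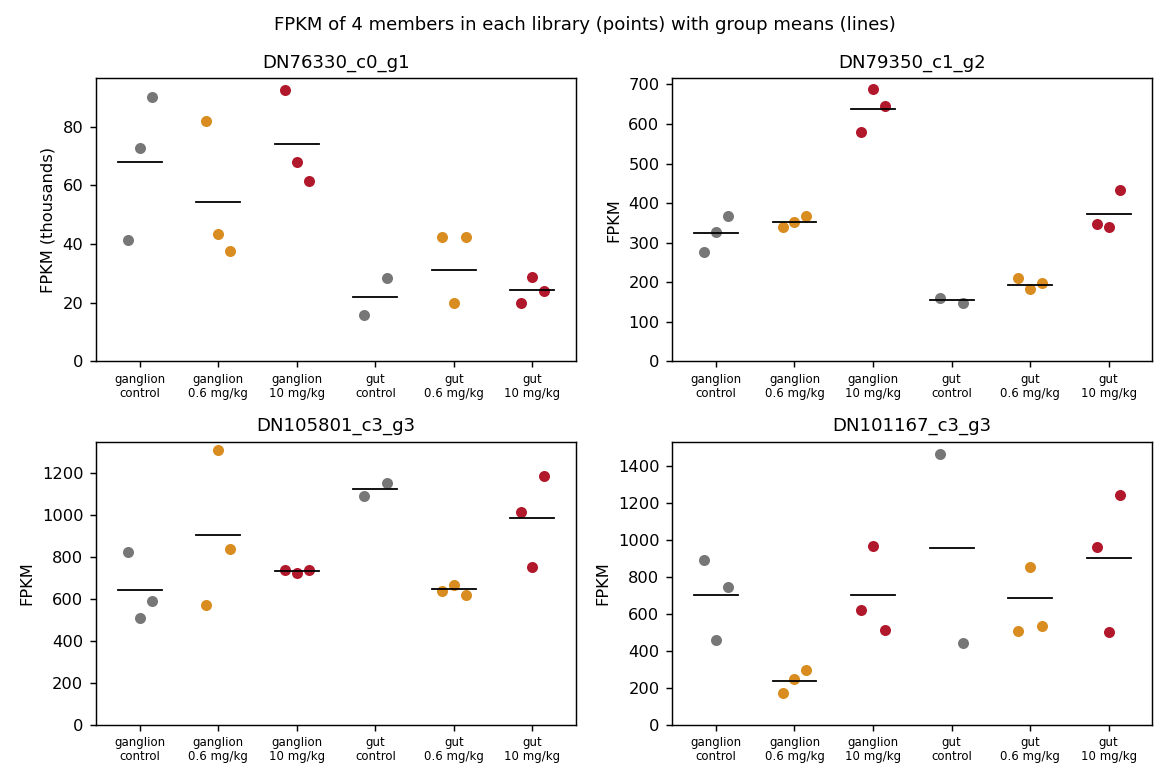
FPKM of 4 members in each library, by tissue and dose of carbamazepine, with points for libraries and lines for group means in which gut low dose libraries 1 and 3 count as 1. DN79350_c1_g2 is higher at 10 mg/kg than in any other library of the same tissue, DN105801_c3_g3 is lower at 0.6 mg/kg than in the other gut libraries, DN101167_c3_g3 is lower at 0.6 mg/kg than in the other ganglion libraries, and DN76330_c0_g1 overlaps between doses.

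The difference of the dose effect between tissues, ganglion minus gut, was tested with all 6 groups in 1 fit. That fit takes the libraries as independent, although by the matching 6 worms gave both tissues. At low dose it was called by edgeR for 0 members, against 0.00143% of the 69689 features, and 8 members had an unadjusted p under 0.05, or 4% against 8.01%. DESeq2 called 3 members, or 1.5% against 1.89%. DN105801_c3_g3 had the smallest p among those with a positive difference, at 1.87 on the log2 scale (SE 0.50, adjusted p = 0.351 by edgeR, 0.00544 by DESeq2), and DN101827_c2_g2 among the negative ones, at -1.29 (SE 0.48, adjusted p = 0.496 by edgeR). At high dose 0 members were called by edgeR, against 0.00143% of features, 0 had an unadjusted p under 0.05, against 2.32%, and DESeq2 called 0, against 0.128%. Without ganglion control 1 there were 4 members with an unadjusted p under 0.05, and without ganglion high dose 3 there were 3. With the worm as a block and both close gut pairs averaged, which leaves 3 residual degrees of freedom, edgeR also called 0 members at either dose, with 4 members at an unadjusted p under 0.05 at low dose and 3 at high dose. In that fit the low dose difference of DN105801_c3_g3 was 1.58, with an adjusted p of 0.460 by edgeR. For DN79350_c1_g2 the difference at high dose in the main fit was -0.35 on the log2 scale (SE 0.43), with an adjusted p of 0.9999 by edgeR. The smallest p at high dose belonged to DN86136_c3_g3 among positive differences, at 0.78 (SE 0.61). Among negative ones it belonged to DN93631_c1_g7, at -1.45 (SE 0.78), and the adjusted p of each was 0.9999 by edgeR. The median difference over the members was 0.18 at low dose, where its sign turned without gut control 3 (-0.25), ganglion control 1 (-0.06) or ganglion low dose 3 (-0.03), and with the worm as a block (-0.02), and was 0.05 without the averaged gut low dose sample. At high dose the median was -0.27. Its sign turned without gut control 2 (0.03) or ganglion control 3 (0.07), and it was -0.03 without gut high dose 2.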

How the data were processed

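Poly(A)-selected libraries were read on an Illumina instrument, per the labels' protocols. The authors deposited expected counts per assembled gene, which are estimated counts and need not be whole, and FPKM values. Per the submitters' processing notes, CASAVA and DESeq2 were used. Their versions and the counting program are not given in these sources. The members were chosen on FPKM. The members and lists were chosen with earlier results of these data known. All fits ran over every feature kept: expected counts were rounded and tested with edgeR 4.0.16 (TMM factors, limma 3.58.1, R 4.3.3; minimum count 10, minimum total 15), 1 coefficient per group. Gut had 7 samples and 4 residual degrees of freedom, the ganglion 9 and 6, both tissues 16 and 10. Gut low dose libraries 1 and 3 were averaged; gut high dose libraries 1 and 3, which matched as 1 worm too, were averaged only in an alternative, so gut samples exceed the 6 matched worms by 1. The fit over both tissues takes libraries that matched as 1 worm as independent, and a block by matched worm was an alternative. DESeq2 1.42.0 and limma on log2(FPKM + 1) and log2(FPKM + 0.1) were alternatives. CPM values are counts relative to TMM-scaled totals, SE is the log2 fold over the square root of F, and counts within 1e-06 of an integer were called whole. Of the steps, only the edgeR fit was tested on simulated counts, whose spread was set lower than that of these data.

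Same-number ganglion libraries of control and high dose deviated together, with correlations of 0.169, 0.190 and 0.236. For all other pairs of equal number the correlation was -0.0913 to 0.115. These values do not establish a pairing. The main tests paired no libraries by number, and a block by replicate number was an alternative. Named per comparison were the members of smallest p in each direction, besides the extremes of level, window and variation. The number of samples and 12536754 to 18285270 counts per library set the precision.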

Additional observations from a re-analysis of the deposited data

How the results depend on the processing

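With 1 library left out, 0 members were called in each of the 6 fits of every ganglion comparison. In gut, leaving out a control or a low dose sample leaves 1 sample in its group. A lack of calls in those fits therefore says little. The averaged low dose libraries 1 and 3 were left out together. Of 120 alternative fits in all, those included, 106 called 0. DESeq2 called 4 members in gut at low dose, 4 in gut at high dose, 6 in gut at high over low dose, 2 in the ganglion at low dose and 3 for the low dose difference between tissues; with gut high dose libraries 1 and 3 averaged too it called 3, 2 and 6 in these gut comparisons and 2 for that difference. With no filter on low counts edgeR called 2, 2 and 2 in these gut comparisons and 1 each in the ganglion at low and at high dose. The cause was not tested. With a block by replicate number, 0 members were called in every comparison, as in the main tests without it. In gut this fit also keeps low dose libraries 1 and 3 apart. There the high dose median was 0.054, against -0.01 with them apart and no block. Averaging high dose libraries 1 and 3 turned that median to 0.079 by edgeR and 0.070 by DESeq2. With the worm as a block 0 members were called, and the median low dose difference between tissues was -0.019. The worm block and DESeq2 on averaged pairs were added after seeing the data. On log2(FPKM + 1) and log2(FPKM + 0.1) the gut medians were 0.22 and 0.23 at low dose, and -0.25 and -0.25 at high over low dose. With 1 library left out, medians ran from -0.53 to 0.15 (gut low), -0.27 to 0.39 (gut high), 0.04 to 0.37 (gut high over low), -0.34 to 0.26 (ganglion low), -0.53 to 0.073 (ganglion high), -0.30 to -0.0017 (ganglion high over low), -0.25 to 0.50 (low dose difference between tissues) and -0.63 to 0.070 (high dose difference). A floor of 50 FPKM passed 372 features in place of 208, leaving out a library 206 to 217, and TPM 160. The length limit of 200 bases was added after seeing the data too. Of 240 alternatives for 16 named log2 folds, 0 turned the direction and 13 brought a call. Depth limits the shortest members, whose FPKM rests on few counts.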
